A study of Mus musculus with 12 samples.

Results

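The genes described here are 32 members of the disease-associated microglia and lysosomal gene group, among 24421 genes in the table. They were listed by name, with earlier results of these data known. They fall by role into 6 receptors and adaptors, 5 secreted cytokines and matrix proteins, 7 cathepsins and cystatins, 7 other lysosomal and endosomal proteins, and 7 lipid, iron and surface proteins. Of the 32, 30 had enough reads for the test across genes. The other 2, Cst7 and Itgax, did not, and are described from their read counts.

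The RNA came from the hippocampus of mice 2 months of age, all of which had received BrdU, a thymidine analogue taken up by dividing cells. There were 4 genotypes with 3 libraries each, labelled as biological replicates: WT, 5xFAD, p75NTRko, and 5xFAD/p75NTRko, the cross of both. 5xFAD mice are a model of amyloid deposition in Alzheimer's disease, with human transgenes driven in neurons by a Thy1 promoter. The p75NTRko label stands for loss of p75NTR, a neurotrophin receptor encoded by Ngfr. Strain, sex, zygosity and the number of animals behind a library are not given in the labels used here. Where nothing says that libraries came from separate animals, p-values measure the spread between these libraries, which may in part be technical. The 6 libraries of 5xFAD and 5xFAD/p75NTRko are called carriers below and the other 6 non-carriers.

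Microglia, the resident macrophages of the brain, read damage through Trem2, a lipid receptor that signals through the adaptor Tyrobp. Around amyloid deposits they are known to pass into a state in which genes such as Cst7, Clec7a, Itgax, Spp1 and Lpl rise while genes of resting microglia fall, and much of that state consists of lysosomal proteases and membrane proteins that digest engulfed material. Many of the same lysosomal genes are also active in neurons, astrocytes and oligodendrocytes. In RNA from whole tissue, fewer cells of a type and less RNA per cell cannot be told apart.

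Several properties of the libraries bear on the values below. Reads assigned to genes numbered 4316739 to 6683613 per library, so that 3 counts stood for 0.446 to 0.690 CPM (counts scaled by TMM to a common library size). Ngfr was higher, not lower, where its knockout was labelled: its mean over 3 libraries was 7.03 CPM (SD 0.962) in p75NTRko and 9.12 CPM (SD 2.41) in 5xFAD/p75NTRko, while WT had 1.003 CPM (SD 0.896) and 5xFAD had 1.10 CPM (SD 0.522). The receptor genotypes are therefore given only as labelled, and any direction drawn from them rests on the label. Thy1, whose promoter drives the transgenes, lay between 1596 and 4019 CPM in the 6 carriers and between 688 and 939.8 CPM in the others. Xist, which is transcribed from the inactive X chromosome, was above 50 CPM in all libraries of WT and 5xFAD/p75NTRko and in p75NTRko replicate 1, and below 50 CPM in all of 5xFAD and in p75NTRko replicates 2 and 3. Genotype and Xist class cannot be told apart in 5xFAD against WT or in 5xFAD/p75NTRko against 5xFAD. In the interaction of both labels only p75NTRko replicate 1 separates them. All 8 markers of hippocampal neurons were detected in every genotype. Their sums were 519.9 to 778 CPM in WT, below every library of 5xFAD (851 to 1112 CPM) and of p75NTRko (885 to 1009.9 CPM), and 672 to 908 CPM in 5xFAD/p75NTRko. The part of this in the differences of members from WT was not tested. All 16 markers of homeostatic microglia were detected, with sums of 561 to 650.1 CPM. Sums of markers of adjoining tissue were 179.7 to 7324 CPM for 14 choroid plexus genes and 313 to 909 CPM for 10 thalamic and habenular genes.

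Levels of the 30 tested members ran from Fth1, at a mean of 1103 CPM in WT, down to Lgals3 at 3.64 CPM and Clec7a at 3.06 CPM. Because the assay reads the 3′ end of each transcript, a count carries no gene-length term. Of the genes named above as rising in microglia around amyloid, Lpl averaged 159 CPM and Spp1 26.8 CPM over all 12 libraries, while Clec7a averaged 4.20, Cst7 0.660 and Itgax 0.273 CPM.

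**Figure D1:**
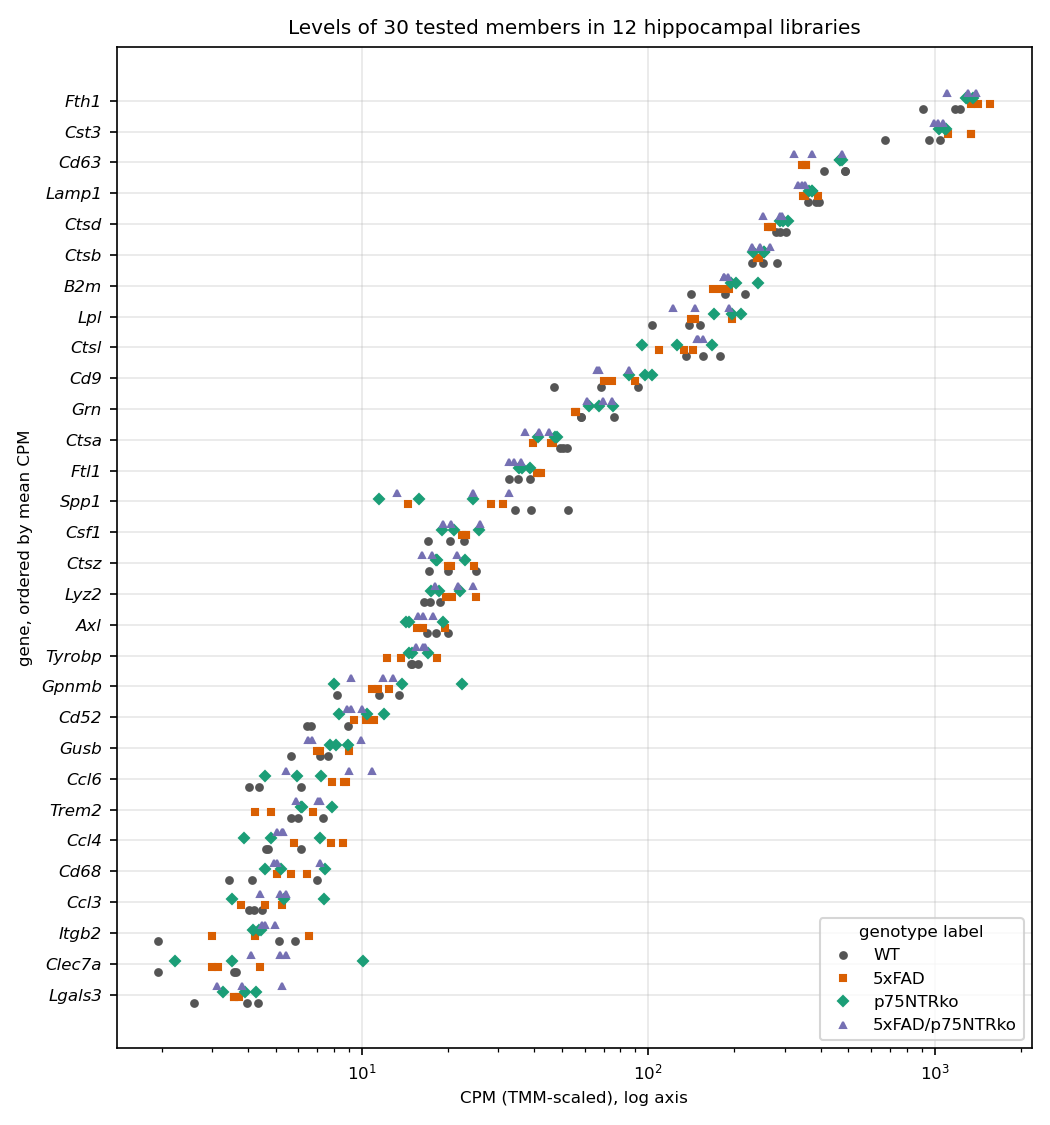
CPM on a log axis for the 30 tested members, ordered by mean level, with 1 point per library and a colour and symbol per genotype label. The genotypes interleave for most genes, and Spp1 and Clec7a show the widest spread between libraries.

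The promoters of 4 members hold CACGTG, the core of the site bound by Tfeb and Tfe3, which are known regulators of lysosomal genes. Their sequences are shown because the choice of members by name did not use this feature. RefSeq promoters of build GRCm38.p6, from 250 bases before to 50 after each start site, were found for 26 of the 32 members. CACGTG reads the same on both strands and was found in 4 of these 26 genes (15.4%), in 8.09% of the 27025 genes with a promoter, and in 11 of 35 further lysosomal genes (31.4%). The extended form TCACGTGA, which contains it, was found in Ctsa and Ctsd, against 1.12% of all genes. This motif was searched after others had been tried. For each gene the stretch nearest upstream of the start site is given, 5′ to 3′ on the gene's strand, with CACGTG in capitals. A match is a description of the letters and not evidence of binding.
Ctsa, chr2:164833749-164833778, plus strand: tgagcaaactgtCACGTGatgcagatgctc
Ctsd, chr7:142387908-142387937, minus strand: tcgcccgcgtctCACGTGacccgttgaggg
Ctsl, chr13:64370739-64370768, minus strand: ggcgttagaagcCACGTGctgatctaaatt
Lamp1, chr8:13159134-13159163, plus strand: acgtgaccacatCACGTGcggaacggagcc

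The motif starts 12 bases before the start site of the promoter used in Ctsa, 98 in Ctsd, 236 in Ctsl and 15 in Lamp1. The stretches of Ctsa and Ctsl lie inside the annotated genes (164832872 to 164841032 and 64361890 to 64370772), so these start sites are internal ones. Ctsa, Ctsd and Lamp1 hold further CACGTG sites that are not printed. Ctsa, Ctsd, Ctsl and Lamp1 encode the cathepsins A, D and L and an abundant glycoprotein of the lysosomal membrane. In 5xFAD against WT their log2 fold changes were -0.20, -0.12, -0.28 and -0.06, with adjusted p between 0.425 and 0.733 in edgeR's quasi-likelihood test.

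In 5xFAD against WT, none of the 30 tested members passed an adjusted p of 0.05 (0 of 30, and of all 13065 genes 0.0536% passed). These genotypes also differed in Xist class, and their choroid plexus, thalamic and hippocampal neuron sums did not overlap. The comparison therefore does not isolate the transgenes. At an unadjusted p under 0.05 there were 6 members, against 13.9% of all genes: Cst3, Fth1, Ccl6 and Cd52 with higher means in 5xFAD, and Cd63 and Spp1 with lower means. The median log2 fold change of the members was 0.07, beside -0.004 over all genes. For 11 members the libraries of the 2 genotypes did not overlap (19.6% of all genes), 6 of them higher in 5xFAD (10.5% of all genes) and 5 lower (9.02% of all genes). Higher and lower values were mixed within the roles. Among 6 tested cathepsins and cystatins, 2 had higher means and 4 lower. Among the 7 lipid, iron and surface proteins, 5 had higher and 2 lower means. The alternative tool DESeq2 called 1 member, Cst3, among 102 genes called in all, where edgeR called 7.

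**Figure D2:**
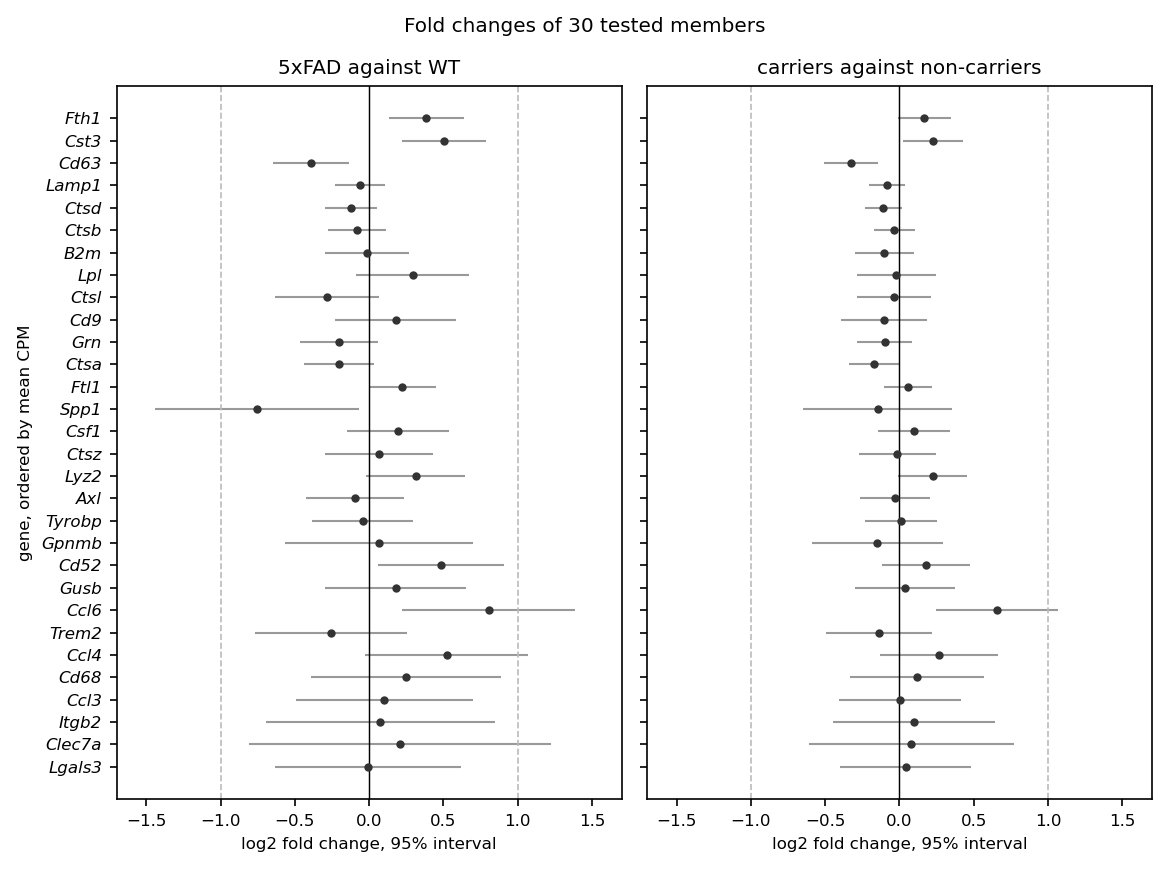
Log2 fold changes of the 30 tested members with 95% intervals, for 5xFAD against WT and for the mean of the carrier genotypes against that of the non-carrier genotypes. Dashed lines mark a 2-fold change, and 26 of 30 intervals in the first comparison and 29 of 30 in the second lie between them.

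The intervals give the precision of these results. In 5xFAD against WT the 95% interval of 26 of 30 members lay within a 2-fold change in either direction, the exceptions being Ccl4, Ccl6, Clec7a and Spp1. In carriers against non-carriers 29 did, all but Ccl6.

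Among the receptors and adaptors, Trem2 had 5.98, 7.30 and 5.64 CPM in WT and 4.24, 6.76 and 4.84 CPM in 5xFAD. It had 6.12, 6.21 and 7.88 CPM in p75NTRko-labelled and 7.16, 7.02 and 5.90 CPM in 5xFAD/p75NTRko-labelled libraries. The groups overlapped, and carriers held both the lowest value and values near the top. Its log2 fold change was -0.26 (95% interval -0.77 to 0.25, adjusted p 0.631) in 5xFAD against WT and -0.14 (-0.49 to 0.22) in carriers against non-carriers.

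Tyrobp, the signalling partner of Trem2, varied little in mean between genotypes. Its level was 14.8, 15.7 and 14.9 CPM in WT, and 13.8, 12.2 and 18.3 CPM in 5xFAD. In p75NTRko-labelled libraries it was 15.0, 17.0 and 14.6 CPM, and in 5xFAD/p75NTRko-labelled libraries 15.5, 16.6 and 16.4 CPM. The 5xFAD libraries enclosed all the others. The log2 fold change was -0.04 (-0.39 to 0.30) in 5xFAD against WT and 0.01 (-0.23 to 0.25) in carriers against non-carriers, and its sign changed with the processing.

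Clec7a encodes dectin-1, a receptor for fungal glucans whose transcript marks microglia near plaques. It had 3.59, 1.95 and 3.65 CPM in WT and 4.41, 3.005 and 3.16 CPM in 5xFAD. The p75NTRko-labelled libraries gave 3.52, 10.1 and 2.23 CPM, and the 5xFAD/p75NTRko-labelled ones 5.16, 5.46 and 4.10 CPM. The highest of all 12 values was thus in a library without the transgenes, p75NTRko replicate 2, with 44 counts against 12 to 31 in the other 11 libraries. The 5xFAD/p75NTRko libraries all exceeded those of WT; the log2 difference was 0.67 (SE 0.455, adjusted p 0.622). In 5xFAD against WT the value was 0.21 (-0.81 to 1.22), an interval that holds changes past 2-fold. In carriers against non-carriers it was 0.08 (-0.61 to 0.77), and 0.49 without p75NTRko replicate 2.

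The other 2 tested receptors varied little by genotype. Axl, a receptor tyrosine kinase that binds exposed phosphatidylserine through Gas6, averaged 18.4 CPM ± 1.60 in WT, 17.1 ± 2.10 in 5xFAD, 16.0 ± 2.74 in p75NTRko and 16.6 ± 1.04 in 5xFAD/p75NTRko (SD, n = 3 each). Itgb2, the beta chain shared by the leukocyte integrins, lay between 1.95 and 6.52 CPM over the 12 libraries.

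**Figure D3:**
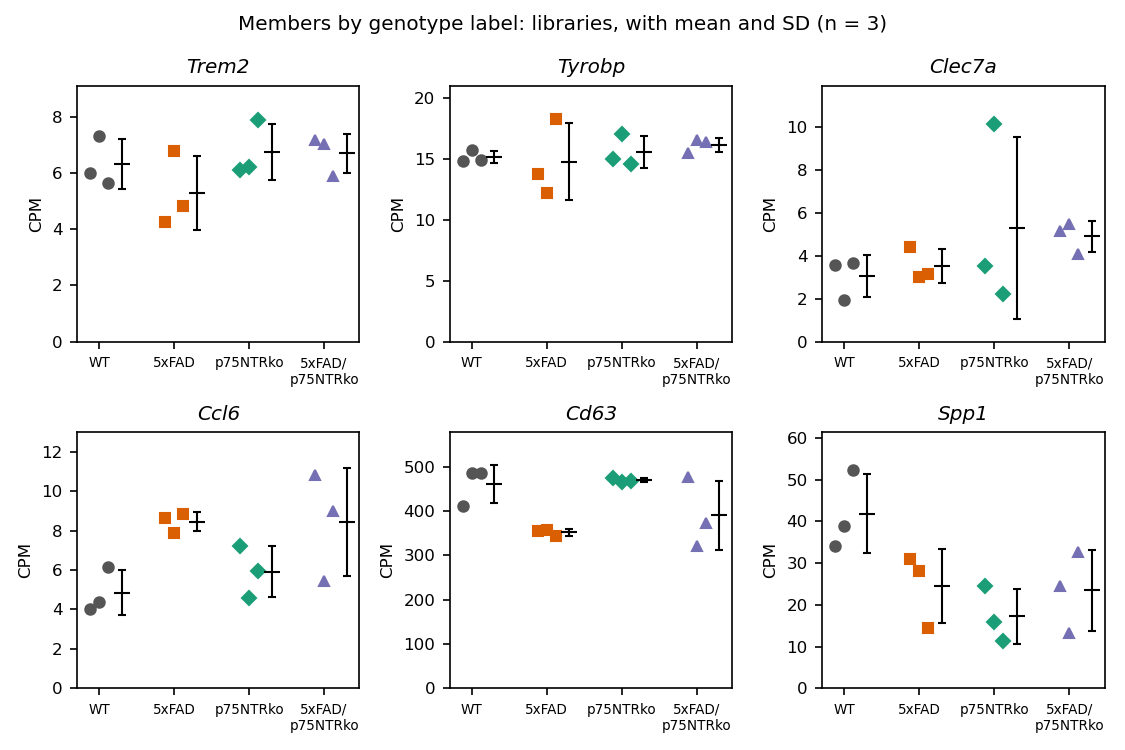
CPM of 6 members by genotype label, with 1 point per library and the mean and SD beside the points (n = 3). Trem2, Tyrobp and Clec7a overlap between WT and 5xFAD, whereas the 3 5xFAD libraries lie above those of WT for Ccl6 and below them for Cd63 and Spp1.

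Itgax, the integrin alpha chain CD11c, was barely detected. It had 0 counts in all 3 WT libraries, 2, 2 and 0 counts in 5xFAD, 0, 0 and 2 in p75NTRko-labelled libraries, and 2, 4 and 7 in 5xFAD/p75NTRko-labelled libraries. Most libraries were at or under the limit of 3 counts, and those above it were 5xFAD/p75NTRko replicates 2 and 3. The carriers held 17 counts in all and the non-carriers 2. The mean was 0.496 CPM against 0.0496 CPM, for which exact two-sided permutation gave p = 0.0152 (adjusted p 0.770 over 2440 genes of similarly low counts; 6 against 6 libraries, smallest possible p 0.00216). At an unadjusted p under 0.05 there were 5.82% of these low genes, and 0 passed after adjustment. With 2440 genes and a smallest possible p of 0.00216, a gene could pass only if many others had a p as small. That 0 passed was therefore close to fixed in advance, and nothing is read from the adjusted p.

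Cst7, or cystatin F, an inhibitor of lysosomal cathepsins, is commonly among the first transcripts to appear in microglia near amyloid. It had 2, 0 and 0 counts in WT and 9, 5 and 9 in 5xFAD. The p75NTRko-labelled libraries had 3, 0 and 8 counts, and the 5xFAD/p75NTRko-labelled libraries 5, 1 and 3. All 5xFAD libraries were above the 3-count limit and all WT libraries below it, but a p75NTRko-labelled library without the transgenes reached 8 counts. Carriers held 32 counts and non-carriers 13, with means of 0.980 and 0.341 CPM (exact two-sided permutation p 0.0823, adjusted p 0.862, 6 against 6 libraries). The adjusted p has the limit given for Itgax. The summed level of Cst7 and Itgax averaged 0.0996 CPM in WT, 1.69 in 5xFAD, 0.681 in p75NTRko and 1.26 in 5xFAD/p75NTRko, and libraries ranged from 0 to 0.299 CPM in WT, from 1.31 to 1.89 CPM in 5xFAD, from 0 to 1.49 CPM in p75NTRko and from 0.975 to 1.64 CPM in 5xFAD/p75NTRko. The highest p75NTRko library, replicate 3, lay within the 5xFAD range, and without it the p75NTRko mean was 0.278 CPM. Without replicate 2 that mean was 1.02 CPM, and without WT replicate 1 the WT mean was 0 CPM.

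**Figure D4:**
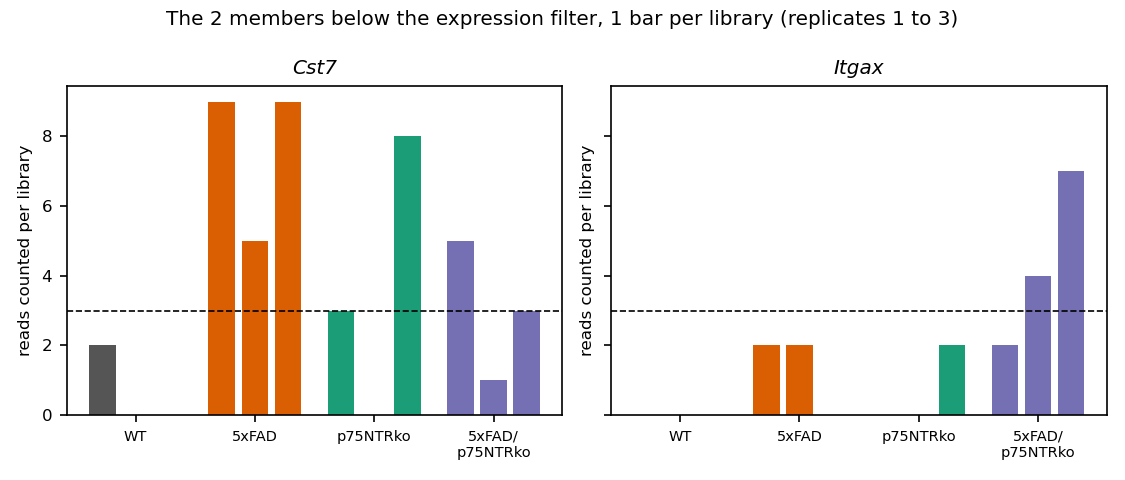
Reads counted for Cst7 and Itgax, with 1 bar per library in replicate order and the dashed line at 3 counts, the limit of measurement. Cst7 exceeds the line in the 3 libraries of 5xFAD and in 1 of p75NTRko and 1 of 5xFAD/p75NTRko, and Itgax in 2 libraries of 5xFAD/p75NTRko.

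Among the secreted members, Ccl6, a chemokine made by microglia and other macrophages, had the largest fold change between carriers and non-carriers. It measured 4.03, 4.38 and 6.14 CPM in WT and 8.66, 7.89 and 8.84 CPM in 5xFAD. It measured 7.23, 4.60 and 5.95 CPM in p75NTRko-labelled libraries and 10.8, 5.46 and 9.02 CPM in 5xFAD/p75NTRko-labelled libraries. The 5xFAD libraries lay above all of WT and all of p75NTRko, while 5xFAD/p75NTRko replicate 2 fell among the non-carriers. Relative to WT the log2 fold change was 0.80 for 5xFAD (SE 0.273, adjusted p 0.261) and 0.81 for 5xFAD/p75NTRko (SE 0.270, adjusted p 0.456). Between carriers and non-carriers it was 0.66 (0.25 to 1.06, adjusted p 0.297). These comparisons share libraries and are not separate evidence. The 5xFAD/p75NTRko and WT libraries are all of the high-Xist class.

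Spp1, or osteopontin, a secreted matrix protein, was highest in WT. Its level was 34.2, 38.9 and 52.4 CPM in WT, and 31.1, 28.2 and 14.5 CPM in 5xFAD. It was 24.5, 15.9 and 11.4 CPM in p75NTRko-labelled libraries and 24.5, 13.3 and 32.6 CPM in 5xFAD/p75NTRko-labelled libraries. All 3 WT libraries lay above the other 9. In p75NTRko-labelled libraries against WT the log2 fold change was -1.28 (SE 0.334, adjusted p 0.242), the largest of any member. DESeq2 called it with an adjusted p of 0.0395, and edgeR without a filter on low counts with 0.0438. Of all genes DESeq2 called 54 in this comparison, where the main fit called 0. The thalamic and habenular marker sum was 526 to 778 CPM in WT and 334 to 339 CPM in p75NTRko, without overlap. Genotype and the content of that tissue therefore cannot be told apart in this comparison. With that sum as a term the log2 fold change was -0.94 (adjusted p 0.644), and with Xist class as a term it was -0.77 (adjusted p 0.818). Beside the genotype means, the Xist term rests on the p75NTRko-labelled libraries alone, 1 of which is of the high class and 2 of the low. The summed markers of border macrophages, all 8 detected in each genotype, were 25.0 to 42.3 CPM in WT and 19.3 to 30.1 in p75NTRko, and those of meningeal and perivascular fibroblasts, all 6 detected, were 140.0 to 251 and 106 to 159 CPM. The part of these 2 cell types in the result was not tested.

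The remaining secreted members did not differ beyond the spread of their libraries by the adjusted test. Ccl4, a chemokine, averaged 5.16 CPM ± 0.849 in WT, 7.42 ± 1.44 in 5xFAD, 5.27 ± 1.68 in p75NTRko and 5.21 ± 0.133 in 5xFAD/p75NTRko. Its neighbour Ccl3 averaged 4.24 ± 0.224, 4.54 ± 0.737, 5.41 ± 1.92 and 5.02 ± 0.531 CPM in the same order. The annotated spans of these 2 genes overlap on chromosome 11 (Ccl3 at 83647843 to 83649378 and Ccl4 at 83648624 to 83664683, RefSeq, GRCm38.p6), so that their separate counts are less certain. Csf1, the growth factor on which microglia depend, lay between 17.0 and 25.8 CPM in all libraries.

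Among the cathepsins and cystatins, Cst3, or cystatin C, a secreted inhibitor of cysteine proteases, had the smallest p of any member in 5xFAD against WT. It had 957, 672 and 1048 CPM in WT and 1335, 1343 and 1117 CPM in 5xFAD. It had 1093, 1034 and 1084 CPM in p75NTRko-labelled libraries and 1031, 1066 and 992 CPM in 5xFAD/p75NTRko-labelled libraries. The 5xFAD libraries were the 3 highest and WT replicate 2 was the lowest by a wide gap. The log2 fold change in 5xFAD against WT was 0.50 (SE 0.133, 0.22 to 0.79, adjusted p 0.189 by edgeR and 0.0425 by DESeq2). In 5xFAD/p75NTRko against 5xFAD it was -0.30 (SE 0.133, adjusted p 0.944).

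None of the cathepsins passed the adjusted test in any comparison. Ctsb, a cysteine protease of the lysosome, averaged 254 CPM ± 25.3 in WT and 241 ± 2.58 in 5xFAD, and Ctsd, the main aspartic protease there, 290.1 ± 11.3 and 267 ± 4.11 (SD, n = 3 each). All Ctsd values of 5xFAD, 262 to 270.0 CPM, lay below those of WT, 280.2 to 302 CPM. Ctsl, a further cysteine protease, ran from 95.4 to 179 CPM over the libraries. It averaged 157 ± 21.4 CPM in WT, 129 ± 17.9 in 5xFAD, 129 ± 35.7 in p75NTRko and 151 ± 4.41 in 5xFAD/p75NTRko. Ctsz lay between 16.2 and 25.1 CPM in all 12 libraries. Ctsa, a carboxypeptidase that also protects lysosomal beta-galactosidase and neuraminidase, was 49.2 to 52.1 CPM in WT, above each of the other 9 libraries at 37.2 to 48.1 CPM. Its log2 fold change was -0.30 (SE 0.111, adjusted p 0.469) in 5xFAD/p75NTRko against WT.

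Among the other lysosomal and endosomal proteins, Cd63, a tetraspanin of late endosomes and exosomes, had the smallest p of any member between carriers and non-carriers. It had 412, 486 and 485 CPM in WT and 356, 357 and 343 CPM in 5xFAD. It had 475, 466 and 467 CPM in p75NTRko-labelled libraries and 476, 322 and 372 CPM in 5xFAD/p75NTRko-labelled libraries. Of 6 carriers, 5 lay below every non-carrier, and 5xFAD/p75NTRko replicate 1 was the exception. For 5xFAD relative to WT the log2 fold change was -0.39 (SE 0.120, adjusted p 0.236). For the cross relative to p75NTRko it was -0.27 (SE 0.120, adjusted p 0.748), and between carriers and non-carriers -0.33 (-0.51 to -0.15, adjusted p 0.235). Without 5xFAD/p75NTRko replicate 1 the last was -0.42 with an adjusted p of 0.0175, and by DESeq2 it was -0.33 with 0.0357. Between carriers and non-carriers DESeq2 also called more of all genes than edgeR, as given below.

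The level of Cd63 is given beside the markers of choroid plexus, a tissue that adjoins the hippocampus. The summed level of the 14 markers, all detected in every genotype and led by Ttr, ran from 2431 to 6017 CPM over the WT libraries, from 324 to 1954 CPM over those of 5xFAD and from 4476 to 7324 CPM over those of p75NTRko. In 5xFAD/p75NTRko it was 7280, 180 and 365 CPM for replicates 1, 2 and 3, and replicate 1 was also the carrier with the highest Cd63. The sums of 5xFAD and WT do not overlap. Neither do their thalamic and habenular sums, at 352 to 421 CPM in 5xFAD and 526 to 778 CPM in WT. Genotype and the content of either tissue therefore cannot be told apart in that comparison. The part of choroid plexus in the Cd63 values was not tested beyond fits with marker sums as terms, which were chosen after seeing the data. With the log2 of the choroid plexus sum as a term, the log2 fold change of Cd63 in carriers against non-carriers was -0.13 (adjusted p 0.657). It was -0.22 (adjusted p 0.336) in 5xFAD against WT and -0.04 (adjusted p 0.998) in 5xFAD/p75NTRko against p75NTRko. With the thalamic and habenular sum as a term these were -0.28, -0.09 and -0.48, the last with an adjusted p of 0.0340.

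**Figure D5:**
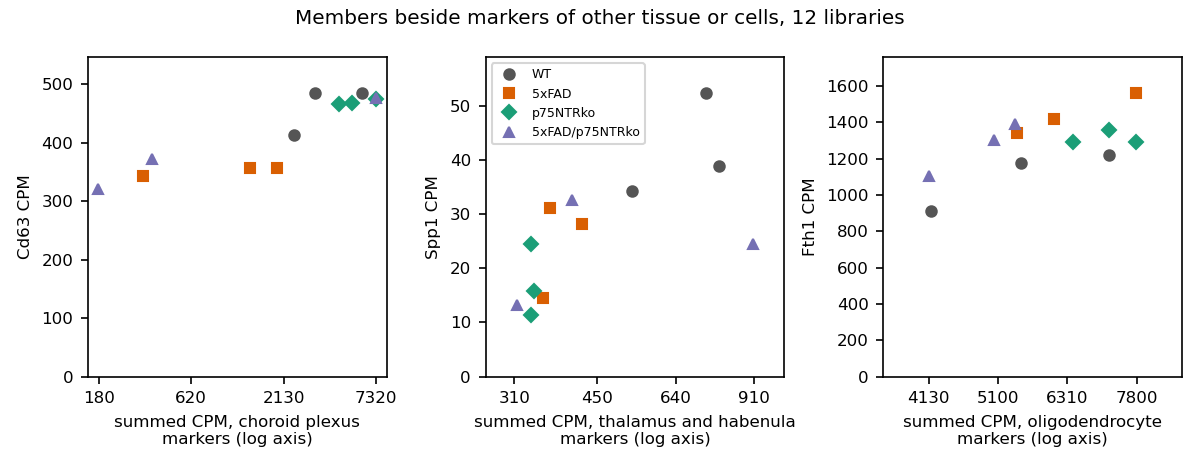
CPM of Cd63, Spp1 and Fth1 against the summed CPM of choroid plexus, thalamic and habenular, and oligodendrocyte markers on a log axis, with 1 point per library. Cd63 lies at 322 to 372 CPM where the choroid plexus sum is lowest and at 412 to 486 CPM where it is 2431 CPM or more.

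The remaining proteins of this role showed no pattern by genotype that passed the test. Lamp1 averaged 379.9 CPM ± 16.2 in WT, 364 ± 23.2 in 5xFAD, 369 ± 5.24 in p75NTRko and 343 ± 9.77 in 5xFAD/p75NTRko. Grn, whose product progranulin is needed for lysosomal function, was 55.4 to 55.8 CPM in 5xFAD, below the 58.1 to 75.9 CPM of WT and the 61.2 to 74.4 CPM of 5xFAD/p75NTRko. In 5xFAD/p75NTRko against 5xFAD its log2 fold change was 0.30 (SE 0.124, adjusted p 0.878). Lyz2, the lysozyme of macrophages, was 19.7 to 25.0 CPM in 5xFAD and 16.4 to 18.7 in WT, at a log2 fold change of 0.31 (adjusted p 0.382). Cd68, the macrophage relative of Lamp1, averaged 4.85 CPM ± 1.87 in WT and 5.73 ± 0.692 in 5xFAD. Gusb, a beta-glucuronidase, and Gpnmb, a transmembrane glycoprotein of phagocytes, averaged 6.83 to 8.28 and 11.1 to 14.7 CPM by genotype. The highest Gpnmb value, 22.3 CPM, was in p75NTRko replicate 2, as for Clec7a.

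Among the lipid, iron and surface proteins, Fth1, the heavy chain of the iron store ferritin, was the most abundant member. It had 1175, 913 and 1221 CPM in WT and 1565, 1339 and 1419 CPM in 5xFAD. It had 1356, 1295 and 1290.1 CPM in p75NTRko-labelled libraries and 1304, 1394 and 1106 CPM in 5xFAD/p75NTRko-labelled libraries. The WT libraries lay below all of 5xFAD and p75NTRko, and the log2 difference of 5xFAD from WT was 0.39 (SE 0.117, adjusted p 0.236). Ftl1, the light chain, was also above WT in every 5xFAD library, with 38.6, 32.6 and 35.0 CPM in WT and 40.7, 42.1 and 41.2 CPM in 5xFAD. It had 36.1, 35.4 and 38.8 CPM in p75NTRko-labelled libraries and 34.0, 36.1 and 32.6 CPM in 5xFAD/p75NTRko-labelled libraries. The latter lay below all of 5xFAD, and the log2 difference was -0.27 (SE 0.106, adjusted p 0.878). Ferritin genes have processed copies elsewhere in the genome, so reads that align to several places may be missing from their counts, which are less certain.

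Ferritin is also abundant in oligodendrocytes, the myelin-forming cells. The sum of 10 oligodendrocyte markers, all detected in every genotype, was 5483, 4154 and 7170.3 CPM in WT replicates 1, 2 and 3. WT replicate 2 also had the lowest Fth1, Cst3 and Cd9 of all libraries. It was lowest too for Ctsb, B2m, Ftl1, Csf1, Gusb, Itgb2, Clec7a and Lgals3, and for the sum of all members, at 3794 CPM. Cd63, Grn and Ctsa were at their highest there. In the other genotypes the oligodendrocyte sum ranged over 5419 to 7791 CPM for 5xFAD, 6431 to 7796 CPM for p75NTRko and 4131 to 5371 CPM for 5xFAD/p75NTRko. With the sum as a term the log2 fold change in 5xFAD against WT was 0.28 (adjusted p 0.300) for Fth1 and 0.42 (adjusted p 0.203) for Cst3. In carriers against non-carriers the same term raised the number of members called from 0 to 2, Cst3 and Fth1. Over all genes the number called in that comparison ran from 1 to 326 over the alternatives, against 2 in the main fit. The share of all genes under this term is not given here, so the calls are not read as particular to the members.

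The other surface and lipid members had these levels. Lpl, lipoprotein lipase, averaged 131 CPM ± 25.1 in WT, 161 ± 31.0 in 5xFAD, 192 ± 21.5 in p75NTRko and 153 ± 34.9 in 5xFAD/p75NTRko. Cd9, a tetraspanin of oligodendrocytes and activated microglia, averaged 69.1 ± 22.6, 78.1 ± 10.5, 95.4 ± 8.96 and 73.0 ± 10.7 CPM in the same order. Cd52, a small glycoprotein of leukocytes and microglia, averaged 7.35 ± 1.40 CPM in WT and 10.2 ± 0.825 in 5xFAD, a log2 difference of 0.48 (SE 0.198, adjusted p 0.323). B2m, the light chain of class I MHC, and Lgals3, or galectin-3, had log2 fold changes of -0.01 (-0.29 to 0.27) and -0.01 (-0.63 to 0.62) in 5xFAD against WT.

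In p75NTRko-labelled libraries against WT, 0 of 30 members passed the adjusted threshold, as did 0% of all genes. At an unadjusted p under 0.05 there were 5 members, against 11.5% of all genes: Lpl, Cd9, Cd52 and Fth1 with higher means and Spp1 with a lower one. The libraries did not overlap for 5 members (16.4% of all genes): Gusb, Lpl, Fth1, Spp1 and Ctsa. All 7 lipid, iron and surface proteins had higher means in the p75NTRko-labelled libraries, as did 6517 of all 13065 genes. In the same comparison the oligodendrocyte sum averaged 7135 CPM against 5602 CPM in WT, with 8 of its 10 markers higher, and the hippocampal neuron sum 955 CPM against 652 CPM. The part of these cells in the result was not tested. Lpl had the largest of these differences, at 0.55 on the log2 scale (SE 0.177, adjusted p 0.331).

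The cross was compared with each parent genotype and with WT. In 5xFAD/p75NTRko against 5xFAD, 0 of 30 members passed (0.0383% of all genes), and 3 had an unadjusted p under 0.05 (5.08% of all genes): Ftl1, Cst3 and Grn. In 5xFAD/p75NTRko against p75NTRko, 0 of 30 passed (0% of all genes), and only Cd63 had an unadjusted p under 0.05 (6.59% of all genes). In 5xFAD/p75NTRko against WT, whose libraries are of a single Xist class, 0 of 30 passed (0% of all genes), and Ccl6, Ctsa and Spp1 had an unadjusted p under 0.05 (9.95% of all genes). Libraries did not overlap for 5 members against 5xFAD (11.2% of all genes), 4 against p75NTRko (12.3%) and 4 against WT (11.5%). DESeq2 also called 0 members in these 3 comparisons. Member medians were -0.02, -0.05 and 0.09 on the log2 scale.

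The interaction asks whether the receptor label had a different effect with and without the transgenes. It sets WT and 5xFAD/p75NTRko, all of the high-Xist class, against 5xFAD and p75NTRko, of the low class but for p75NTRko replicate 1. Interaction and Xist class are therefore almost the same split of libraries and can hardly be told apart. Over all genes the smallest p was that of sex-linked Ddx3y (log2 value -14.6, adjusted p 0.00472 by edgeR). Again 0 of 30 members passed by edgeR or by DESeq2 (0.0383% of all genes by edgeR), and 7 had an unadjusted p under 0.05 (9.32% of all genes). Of these, Cst3, Lpl, Fth1, Ftl1 and Cd52 had negative values, so that the cross was lower than the sum of both single differences, and Spp1 and Ctsl had positive values. For Cst3 the interaction was -0.56 (SE 0.188, adjusted p 0.413), for Fth1 -0.44 (SE 0.166, adjusted p 0.480) and for Spp1 1.22 (SE 0.471, adjusted p 0.488) on the log2 scale. With the oligodendrocyte sum as a term, chosen after seeing the data, the first 2 were -0.19 and -0.05. All 10 oligodendrocyte markers also had negative interaction values, and their sum in the cross lay below all libraries of 5xFAD and p75NTRko. Interaction and oligodendrocyte content can therefore hardly be told apart, and the part of these cells was not tested further. With Xist class as a term the interaction of Spp1 was -0.16. The median of the members was -0.18, beside 0.002 over all genes.

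In carriers against non-carriers, the comparison with the most libraries on a side, 0 of 30 members passed (0.0153% of all genes). At an unadjusted p under 0.05 there were 4 members (10.3% of all genes): Ccl6 and Cst3 with higher means in carriers, and Cd63 and Ctsa with lower ones. For Cst3 the log2 fold change was 0.22 (0.02 to 0.42, adjusted p 0.445). The 6 carriers did not separate from the 6 non-carriers for any tested member, as against 0.582% of all genes.

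Further genes of the same pathways, listed by name, were counted in the same tests. Of 45 further lysosomal genes, all tested, 0 passed the adjusted threshold in any of the 7 comparisons. In 5xFAD against WT 18 had higher and 27 lower means, with a median of -0.04, and 4 (8.89%) had an unadjusted p under 0.05, 1 higher and 3 lower, beside 13.9% of all genes. The smallest p was that of Scarb2, a lysosomal membrane receptor for glucocerebrosidase, at -0.40 (SE 0.113, adjusted p 0.215). Scarb2 also had the smallest p of that list in 5xFAD/p75NTRko against WT, at -0.41 (SE 0.113, adjusted p 0.368). In 5xFAD/p75NTRko against 5xFAD it was that of Galns, a sulfatase that breaks down keratan sulfate, at 0.87 (SE 0.275, adjusted p 0.692). Of 31 further genes of disease-associated microglia, 23 were tested and 0 passed in any comparison. In 5xFAD against WT 15 had higher and 8 lower means, with a median of 0.08, and 2 (8.7%) had an unadjusted p under 0.05, both lower, again beside 13.9% of all genes. The smallest p was that of Fam20c, a kinase of secreted proteins, at -0.45 (SE 0.151, adjusted p 0.261). In carriers against non-carriers it was that of Cadm1, a cell adhesion molecule, at 0.20 (SE 0.079, adjusted p 0.430). Of the 16 homeostatic markers 0 passed either. Between 5xFAD and WT 8 had higher and 8 lower means, and 5 (31.2%) had an unadjusted p under 0.05, 3 higher and 2 lower, beside 13.9% of all genes. The smallest p was that of C1qa, a subunit of the complement protein C1q, at -0.59 (SE 0.181, adjusted p 0.236). The summed level of the 16 averaged 616 CPM ± 48.1 in WT, 608 ± 25.0 in 5xFAD, 609 ± 28.9 in p75NTRko and 595 ± 36.0 in 5xFAD/p75NTRko.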

How the data were processed

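The authors deposited raw counts of reads per gene symbol for 12 QuantSeq 3′ mRNA libraries, made per the labels' protocols from Trizol-extracted hippocampal RNA. The submitters' processing notes name FastQC, HISAT2, SAMtools, HTSeq and edgeR with build mm10, which is GRCm38. Versions and the use of strand are not given in the sources used here, so overlapping and antisense genes are uncertain. The 5 summary lines that end the table entered neither depth nor tests; 32.2% to 38.5% of reads were assigned to genes.

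The main test was edgeR 4.0.16 under R 4.3.3 (filterByExpr, TMM, quasi-likelihood fit of genotype means to all 12 libraries) and Benjamini-Hochberg adjustment over 13065 genes at 0.05, in 7 comparisons. Carriers were compared as a contrast of genotype means. Cst7 and Itgax, below the filter, were tested by exact permutation over 924 assignments. The common coefficient of variation was 13.8%. Libraries of a genotype differed by more than counting noise (lowest chi-square divided by its degrees of freedom, 3.09). Limits from counts cover counting error only. Alternatives were DESeq2 1.42.0, other scalings and filters, fewer samples, the replicate number, Xist class and marker sums as terms.

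The members, lists and tests were chosen with earlier results of these data known. Values per library are given for Trem2, Tyrobp, Cst7, Clec7a and Itgax and for the members with the smallest p of each comparison (3 in 5xFAD against WT, carriers and the interaction, 1 elsewhere). Other members are given by means or ranges. The marker sums as terms and the motif search were chosen after seeing the data. The procedure was tested on simulated data.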

Additional observations from a re-analysis of the deposited data

Results flagged for a closer look

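Each of 32 members was examined in the 6 carriers and in the 6 non-carriers for a library that stood apart from the rest by Dixon's test at the 95% level. Of 64 groups, 7 held such a library. Chance gives about 1 in 20 for independent groups drawn from a single normal population. Here each group joins different genotypes and the members share libraries, so the 7 cannot be set against that rate. Applying the test to these groups of 6 was decided after seeing the data.

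Clec7a was 10.1 CPM (44 counts) in p75NTRko replicate 2, where the next non-carrier had 3.65 CPM. Itgax was 0.297 CPM (2 counts) in p75NTRko replicate 3, where the other 5 non-carriers had 0. With those at 0 any read gives this outcome, and 2 counts lie under the limit of 3, so nothing is read from it, and 6 groups remain without it. Cst3 was 672 CPM in WT replicate 2, below the next value of 957 CPM. Lamp1 was 390.2 CPM in 5xFAD replicate 1, above 353 CPM. Cd63 was 476 CPM in 5xFAD/p75NTRko replicate 1, above 372 CPM, and 412 CPM in WT replicate 1, below 466 CPM. Lgals3 was 5.26 CPM (27 counts) in 5xFAD/p75NTRko replicate 2, above 3.83 CPM.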

How the results depend on the processing

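Of 159 counts of members called under alternatives, 152 were the same as the 0 reported. DESeq2 called 1 member in 5xFAD against WT, in p75NTRko against WT and in carriers against non-carriers. Without a filter on low counts 1 was called in p75NTRko against WT, with the thalamic sum as a term 1 in 5xFAD/p75NTRko against p75NTRko, and with the oligodendrocyte sum as a term 2 in carriers against non-carriers. The share of all genes called under each of these settings is not given here, so the calls are not read as particular to the members. Leaving out single libraries gave 0 to 1 in carriers against non-carriers and 0 in the other 6 comparisons. The cause was not tested. Counts over all genes ranged over the alternatives from 0 to 102 in 5xFAD against WT (7 reported), 0 to 54 in p75NTRko against WT (0), 0 to 22 in 5xFAD/p75NTRko against 5xFAD (5), 0 to 43 against p75NTRko (0), 0 to 316 against WT (0), 0 to 25 in the interaction (5) and 1 to 326 in carriers (2). DESeq2 gave 102, 54, 22, 20, 32, 25 and 72 in that order.

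Of 422 log2 fold changes of named members under alternatives, 21 changed sign. Tyrobp in 5xFAD against WT ranged from -0.22 to 0.070 without single libraries. In carriers against non-carriers it was -0.012 with total counts, -0.0011 without a filter, -0.0023 with Xist class, -0.11 with the choroid plexus sum, -0.0037 with the thalamic sum, -0.010 with the oligodendrocyte sum, and -0.080 to 0.062 without single libraries. Clec7a was -0.52 in 5xFAD against WT and -0.025 in carriers with Xist class as a term, which rests on 1 high-Xist and 2 low-Xist libraries of p75NTRko, the outlying Clec7a library among the latter. Without single libraries it was -0.028 to 0.34 and -0.12 to 0.49. The interaction of Spp1 was -0.16 with Xist class as a term.

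The low-count sum was also taken over members under a mean of 50 counts, 11 genes in place of 2. It averaged 43.3 CPM for WT, 52.6 CPM for 5xFAD, 51.5 CPM for p75NTRko and 53.7 CPM for 5xFAD/p75NTRko. The level is higher since more genes enter, but the pattern differs too. WT libraries, at 39.8 to 47.0 CPM, lay below all others. Those of p75NTRko, at 47.1 to 57.3 CPM, overlapped 5xFAD (48.6 to 55.0 CPM) and 5xFAD/p75NTRko (49.7 to 57.3 CPM). Same-numbered libraries correlated at -0.42 to 0.14 and 2 of 12 correlated best with their own number. These are correlations of deviations from the genotype means over all genes tested, so they cannot exclude a shared batch. With the replicate block 0 members were called in each comparison, and 1, 0, 0, 0, 0, 3 and 2 genes in all. Depth limits Cst7 and Itgax, at 0 to 9 counts per library.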

Other observations

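In p75NTRko replicate 2, Clec7a (10.1 CPM), Gpnmb (22.3 CPM), Ccl3 (7.36 CPM), Cd52 (11.96 CPM) and B2m (241 CPM) were each at their highest of the 12 libraries, and Axl (14.3 CPM) and Ctsl (95.4 CPM) at their lowest. The summed level of the 6 monocyte and neutrophil markers in the table was also highest there, at 6.67 CPM against 0.492 to 4.33 CPM in the other libraries, with Retnlg at 0 throughout. In reads the sum was 29 counts there and likewise 29 in WT replicate 1, and 0 of these markers passed the filter. The depth of p75NTRko replicate 2 was the lowest, at 4316739 counts. The part of these properties in the values was not tested.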
